A study of Homo sapiens with 48 samples.

Results

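The 8 genes described here make or help to assemble the antibody of AMO1 cells, and they were taken by name from a count table of 58302 genes. IGKC encodes the constant part of the kappa light chain, IGHA1 and IGHA2 encode the constant parts of the alpha 1 and alpha 2 heavy chains, and JCHAIN encodes the joining chain of polymeric antibody. MZB1, FKBP11, CRELD2 and PPIB encode proteins of the endoplasmic reticulum (ER) that act while proteins fold and assemble. All 8 passed the filter on low counts in every fit. Every library came from AMO1, an established myeloma cell line of human origin that grew out of a plasmacytoma. Doxycycline (Dox, 0.2 µg/ml) turned on short hairpin RNAs (shRNAs) in these cells. In shIRE1 clones 1 and 3 the shRNAs were aimed at ERN1, the gene of the ER stress sensor IRE1, and in shXBP1 clones 1 and 18 at XBP1, whose mRNA IRE1 splices. Each clone grew from a single cell. For how these clones were made, the study's methods refer to earlier work, and the sample labels give only the target and a clone number. If a clone carried more than 1 shRNA against its target, these cannot be told apart from each other. Each of the 4 clones was sampled at 0, 24, 48 and 72 h of Dox in 3 replicate flasks, which gave 16 groups and 48 libraries. The reference of every change was the 0 h group of the same clone. No library with a non-targeting hairpin was used, and any effect of Dox itself is part of every change.

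A plasma cell turns most of its secretory capacity to a single antibody, in which each heavy chain pairs with a light chain inside the ER. Heavy chains that have no light chain are held back by chaperones, whereas free light chains can be secreted. IgA is exported largely as a polymer joined by the J chain. IRE1 senses unfolded proteins in the ER and splices XBP1 mRNA, and the spliced product XBP1s is a transcription factor that raises many genes of the secretory pathway. The RNase of IRE1 can also cleave other mRNAs at the ER membrane.

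Levels are given in CPM, which are counts relative to the library total after scaling of the totals by the TMM method of edgeR. Total counts ran from 19177855 to 40767202 per library, and the 8 genes together took 1.23 to 5.61% of them. The labels were checked against the targeted genes. ERN1 fell at 72 h by 0.58 ± 0.04 (SE) on the log2 scale in shIRE1 clone 1 and by 1.82 ± 0.05 in clone 3, and the log2 change of XBP1 was -2.32 ± 0.07 in shXBP1 clone 1 and -2.165 ± 0.09 in clone 18. The target of the other shRNA moved as well. At 72 h XBP1 changed by -0.38 ± 0.04 and -0.86 ± 0.06 in shIRE1 clones 1 and 3, and ERN1 by 0.72 ± 0.04 in shXBP1 clone 1. In shXBP1 clone 18 ERN1 went from 410.504 to 418.35 CPM at 0 h to 304.977 to 362.281 CPM at 72 h. Of 9 plasma cell markers, among them JCHAIN, MZB1 and XBP1 themselves, all 9 were detected, with a summed level of 7500 to 21000 CPM, against 1.94 to 14.5 CPM for 5 B cell markers and 5.06 to 18.4 CPM for 5 T and NK cell markers, most of it CD3E. Myeloid, erythroid, epithelial and fibroblast markers each summed to at most 8.16 CPM. Over all genes, 2 libraries were nearer to another clone at the same time than to their own group, namely shXBP1 clone 18 at 72 h replicate 3 (Pearson's r of 0.994 with the 72 h libraries of shXBP1 clone 1 against 0.983 with its own) and shIRE1 clone 3 at 24 h replicate 1 (0.993 with clone 1 against 0.991). The changes of the 8 genes without these libraries are given after the account of the single genes. Libraries also differed in how the level of a gene varied with the GC content of its transcript, with slopes from -0.216 to 0.342 log2 units per 10 points of GC, the highest in shXBP1 clone 1 at 0 h replicate 1.

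Before Dox, IGKC, IGHA1 and JCHAIN stood above MZB1, FKBP11, CRELD2 and PPIB, whereas IGHA2 did not. Scaled to the length of the transcript, IGKC led in every clone, with means of 41174 CPM per kb in shIRE1 clone 1, 52855 in shXBP1 clone 1, 63723 in shIRE1 clone 3 and 76738 in shXBP1 clone 18. IGHA1 followed with group means of 6561 to 10452 CPM per kb, then JCHAIN with 2273 to 5473 and MZB1 with 436 to 701. FKBP11 (158 to 275 CPM per kb), PPIB (106 to 222) and IGHA2 (116 to 415) lay close together and their order differed between clones. CRELD2 was lowest, at 16.5 to 36.9 CPM per kb. These are levels and not changes, and a single clone cannot stand for AMO1 cells as a whole: for each pair of clones 6 or 7 of the 8 genes differed at 0 h by the edgeR test.

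At 0 h, shXBP1 clone 18 had the highest level of IGKC, JCHAIN, MZB1, FKBP11 and PPIB among the clones. Its JCHAIN libraries lay at 6818.95, 7192.51 and 7103.26 CPM, above the highest JCHAIN library of any other clone at 0 h, which was at 4808.02. IGKC was lower in shIRE1 clone 1 than in shXBP1 clone 18 by 0.90 ± 0.07 on the log2 scale, and JCHAIN by 1.27 ± 0.10. Between shIRE1 clone 1 and clone 3, 6 of the 8 genes differed, against 40.6% of all genes tested. The counts for the other pairs were 7 for shIRE1 clone 1 against shXBP1 clone 1 (32.3% of all genes), 6 for shIRE1 clone 1 against shXBP1 clone 18 (52.7%), 7 for shIRE1 clone 3 against shXBP1 clone 1 (52.2%), 6 for shIRE1 clone 3 against shXBP1 clone 18 (39.1%) and 7 for shXBP1 clone 1 against clone 18 (51.3%). The count for shIRE1 clone 3 against shXBP1 clone 1 was 4 when shXBP1 clone 1 at 0 h replicate 1 was left out.

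**Figure D1:**
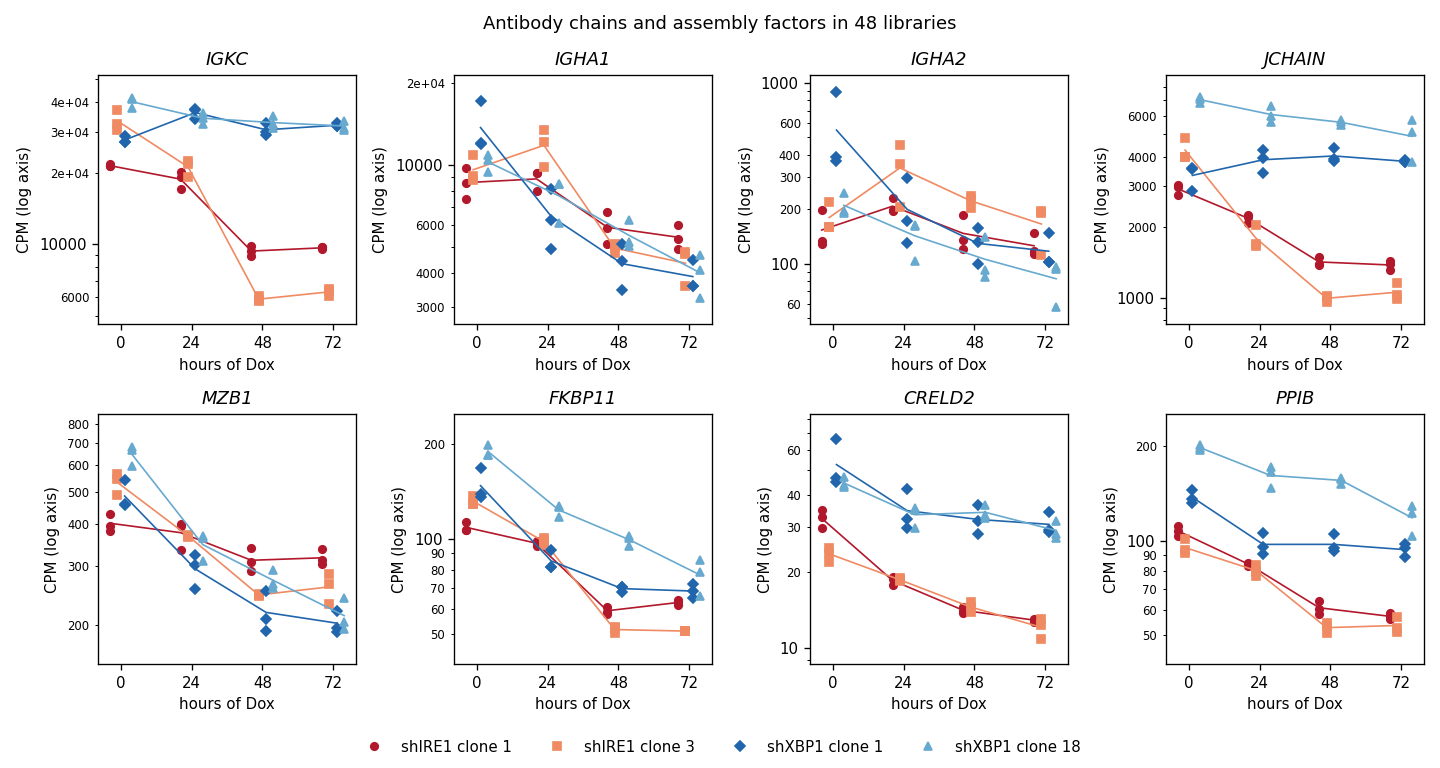
CPM of each of the 8 genes on a log axis in every library, by clone and hours of Dox, with 1 point per library and a line through the group means. IGKC in shIRE1 clone 3 went from 30597.7 CPM or more at 0 h to at most 6490.22 CPM at 72 h, whereas in shXBP1 clone 1 every 72 h library lay above every 0 h library.

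IGKC, the most abundant of the genes, fell steeply in both shIRE1 clones and little or not at all in the shXBP1 clones. In shIRE1 clone 3 its libraries lay at 37143.7, 30597.7 and 32239.8 CPM at 0 h, at 19303.2, 22624.5 and 21928.9 CPM at 24 h, at 5740.27, 5833.18 and 6018.9 CPM at 48 h and at 6360.35, 6043.81 and 6490.22 CPM at 72 h. In shIRE1 clone 1 they went from 21387.4, 21821.3 and 21392.8 CPM at 0 h to 9582.06, 9717.4 and 9713.11 CPM at 72 h. All Dox libraries of each shIRE1 clone lay below all of its 0 h libraries. The log2 change at 72 h was -2.42 ± 0.08 in clone 3 (edgeR adjusted p = 1.56e-12) and -1.16 ± 0.05 in clone 1 (adjusted p = 4.76e-13). Since RNA was taken from bulk cultures, fewer cells that make a transcript and less of it in each cell cannot be told apart. At 24 h the changes were still small, at -0.19 ± 0.05 in clone 1 and -0.65 ± 0.07 in clone 3. The value in clone 1 at 24 h was -0.13 when its 24 h replicate 1 was left out.

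In shXBP1 clone 1, IGKC libraries lay at 28775.1, 27084.9 and 27069.1 CPM at 0 h and at 32494.8, 31557.4 and 31705.1 CPM at 72 h, so that the groups did not overlap and the Dox libraries were the higher ones. The log2 change was 0.36 ± 0.06 after 24 h (adjusted p = 0.000977). It was 0.13 ± 0.06 after 48 h, which did not pass (adjusted p = 0.112), while that after 72 h was 0.19 ± 0.06 (adjusted p = 0.0283). The call at 72 h was lost, with adjusted p between 0.0527 and 0.0855, when any of the 72 h libraries or 0 h replicate 2 or 3 was left out, and with the replicate number as a block (adjusted p = 0.0502). In shXBP1 clone 18, IGKC went the other way, from 41055.2, 37610.5 and 41735.7 CPM at 0 h to 33346.7, 30611.9 and 31060.8 CPM at 72 h. All 72 h libraries lay below all 0 h libraries, and the log2 change was -0.34 ± 0.07 (adjusted p = 0.00821), a call that was lost when 0 h replicate 1 (adjusted p = 0.05) or replicate 3 (0.0521) was left out.

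JCHAIN, which links IgA units to each other, followed IGKC in the shIRE1 clones. In clone 3 its 0 h libraries ranged from 4013.43 to 4808.02 CPM and its 72 h libraries from 985.52 to 1151.6 CPM, a log2 change of -2.03 ± 0.09 (adjusted p = 3.41e-11). In clone 1 it went from 2748.52 to 3036.22 CPM at 0 h to 1312.02 to 1431.36 CPM at 72 h, a change of -1.09 ± 0.04 (adjusted p = 1.16e-13). At 24 h in clone 3 the JCHAIN libraries already stood at 2044.4, 1657.76 and 1695.5 CPM and the change was -1.26 ± 0.08. Without replicate 1, the library nearer to clone 1, it was -1.36. In none of these groups did a Dox library reach the 0 h libraries.

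In shXBP1 clone 1, JCHAIN did not pass the test at any time, with a log2 change of 0.20 ± 0.10 after 24 h (adjusted p = 0.147). The later changes were 0.26 ± 0.10 after 48 h (adjusted p = 0.0559) and 0.18 ± 0.10 in the 72 h group (adjusted p = 0.17). Every library at 48 and 72 h lay above every 0 h library, the highest of which was at 3594.08 CPM. JCHAIN passed at 24 h when 24 h replicate 2 was left out, and at 48 h when 24 h replicate 1 or 2 or 0 h replicate 2 or 3 was left out, in each case as a rise. With a GC offset, described below, the changes at 24 and 48 h were 0.15 and 0.085 and passed (adjusted p = 0.000333 and 0.0216). DESeq2 also called the change at 48 h (adjusted p = 0.0496). So did edgeR with totals without immunoglobulin genes (0.0457), without the filter on low counts (0.00297) and in the fit of all 48 libraries (0.0246). Without that filter the changes at 24 and 72 h passed as well (0.02 and 0.0433). In shXBP1 clone 18 its libraries at 72 h lay at 5141.58, 5749.41 and 3821.16 CPM, all below the 0 h libraries given above. The lowest of them, replicate 3, is the library that was nearer to shXBP1 clone 1 than to its own group, and the 72 h libraries of clone 1 lay between 3802.47 and 3880.72 CPM. The log2 change was -0.52 ± 0.11 (adjusted p = 0.0129), and -0.37 without replicate 3 (adjusted p = 0.00287). The call was lost when any of the 0 h libraries was left out, with adjusted p between 0.0526 and 0.0639, or when only the 6 libraries compared were fitted (0.0821).

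**Figure D2:**
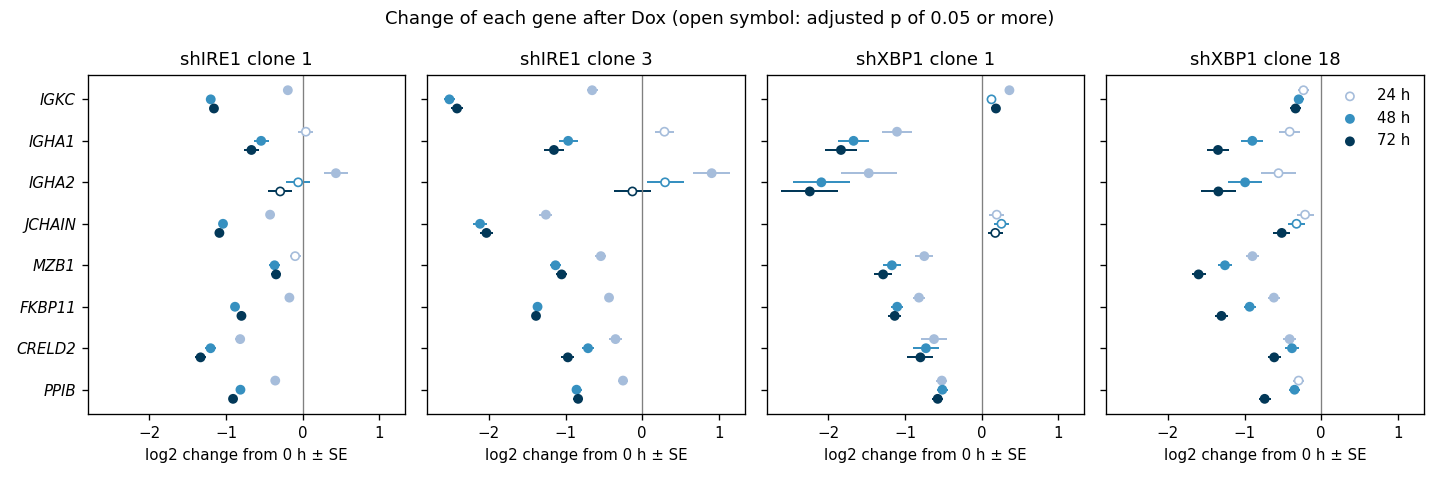
Log2 change against 0 h (x axis, ± SE, edgeR fit of the 12 libraries of a clone) of each gene at 24, 48 and 72 h, with a panel for each clone and open points where the adjusted p was 0.05 or more. At 72 h IGKC and JCHAIN are the lowest points of shIRE1 clone 3, at -2.42 and -2.03, and lie at 0.19 and 0.18 in shXBP1 clone 1, where IGHA1 and IGHA2 are lowest.

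The alpha heavy chain genes lie on chromosome 14 (IGHA1 at chr14:105703995-105708665 and IGHA2 at chr14:105583731-105588395, minus strand, GRCh38 with GENCODE 44), and IGKC lies on chromosome 2 (chr2:88857161-88857683, minus strand). IGHA1 and IGHA2 are so alike that short reads can be assigned to the wrong gene. Their canonical transcripts have 1310 and 1320 bases and were identical at 96.9% of 1271 aligned bases, and 34.0% of all stretches of 50 bases in IGHA2, the read length used here, also occur in IGHA1. The longest gap between them is a run of 39 bases in the hinge that only IGHA1 has. The part of each transcript around it is shown because this is where a read can tell the genes apart most clearly, with the 39 bases in capitals.
IGHA1: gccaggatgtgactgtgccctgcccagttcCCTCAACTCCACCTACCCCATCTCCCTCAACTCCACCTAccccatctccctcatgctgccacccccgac
IGHA2: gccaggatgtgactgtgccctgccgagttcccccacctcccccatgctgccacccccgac
The deposited table counts 1.53 to 4.93% of all IGHA1 and IGHA2 reads as IGHA2. How reads that match both genes were counted is not given in the sources used here, so the level of IGHA2 is uncertain, and IGHA2 is described beside IGHA1 and not as a separate heavy chain.

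IGHA1 fell in all 4 clones by 72 h. Its libraries in shXBP1 clone 1 lay at 17113.5, 11945.1 and 12016 CPM at 0 h and at 4454.75, 3597.65 and 3598.15 CPM at 72 h, a log2 change of -1.84 ± 0.21 (adjusted p = 6.06e-05). In shXBP1 clone 18 they went from 10892.4, 9425.56 and 10402.8 CPM to 4672.57, 3243.54 and 4109.06 CPM, a change of -1.35 ± 0.14 (adjusted p = 6.89e-05). No 72 h library of either clone came near a 0 h library. IGHA1 had already fallen at 24 h in shXBP1 clone 1, by 1.11 ± 0.20 on the log2 scale (adjusted p = 0.00216), and its change at 24 h in clone 18 was -0.41 ± 0.14 (adjusted p = 0.197).

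In the shIRE1 clones IGHA1 had not fallen at 24 h by this fit. At that time its log2 change was 0.04 ± 0.10 in clone 1 (adjusted p = 0.73) and 0.29 ± 0.12 in clone 3 (adjusted p = 0.0677), where the libraries lay at 9815.27, 13441.2 and 12097.9 CPM against 8771.08, 9095.31 and 10886.2 CPM at 0 h. Without 24 h replicate 1 of clone 3, the library that was nearer to clone 1, the change was 0.41 and passed the test (adjusted p = 0.011), and it also passed without 0 h replicate 3 (0.38) or 72 h replicate 3 (0.28). By 72 h IGHA1 stood at 6010.4, 5319.61 and 4918.98 CPM in clone 1, against 7486.73, 8594.52 and 9701.97 CPM at 0 h, and at 4685.91, 4785.1 and 3574.91 CPM in clone 3. All 72 h libraries lay below all 0 h libraries, with log2 changes of -0.67 ± 0.10 (adjusted p = 8.35e-06) and -1.15 ± 0.13 (adjusted p = 1.32e-06).

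IGHA2 followed IGHA1 downwards in the shXBP1 clones, with log2 changes at 72 h of -2.24 ± 0.37 in clone 1 (adjusted p = 0.000924) and -1.34 ± 0.23 in clone 18 (adjusted p = 0.00329). In shXBP1 clone 1 its value rests in part on 1 control library, 0 h replicate 1 at 887.419 CPM, against 370.109 and 386.415 CPM in the other 0 h libraries. Without it the change at 24 h was -0.93 in place of -1.47, and still passed the test. The call at 24 h was lost when 24 h replicate 3 was left out (adjusted p = 0.0537) and when only the 6 libraries compared were fitted (0.0541). In the shIRE1 clones IGHA2 rose at 24 h, by 0.43 ± 0.16 in clone 1 (adjusted p = 0.021) and by 0.91 ± 0.24 in clone 3 (adjusted p = 0.00682), and did not pass the test at 48 or 72 h, where its changes were -0.06, -0.29, 0.30 and -0.13. Its libraries in shIRE1 clone 3 at 24 h lay at 205.667, 454.839 and 354.359 CPM, the first of which was within the 0 h range of 159.855 to 218.733 CPM. The rise in clone 1 was lost when 0 h replicate 1 (adjusted p = 0.101) or 2 (0.111) or 24 h replicate 2 (0.0942) was left out, and was 0.67 without 0 h replicate 3. It was also lost with DESeq2 (adjusted p = 0.115) and in the fit of all 48 libraries (0.222). At 72 h the change in clone 1 passed the test as a fall without 0 h replicate 1 (-0.41) or 72 h replicate 1 (-0.43).

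IGHA1 and IGKC moved apart in opposite directions with the 2 kinds of shRNA. The number of IGHA1 counts per 100 IGKC counts in the same library needs no scaling of totals. In shIRE1 clone 3 there were 29.0 ± 5.12 (SD, n = 3) IGHA1 counts per 100 IGKC counts at 0 h, and 55.1 ± 4.28 after a day of Dox. The number then reached 84.3 ± 4.25 at 48 h, with 69.3 ± 12.6 in the 72 h libraries. In shIRE1 clone 1 the ratio rose from 39.9 ± 5.19 to 56.0 ± 6.15 at 72 h. In shXBP1 clone 1 it dropped from 49.3 ± 8.79 at 0 h to 17.8 ± 3.75 at 24 h and 12.2 ± 1.35 at 72 h, and in shXBP1 clone 18 from 25.5 ± 0.889 to 12.6 ± 1.79 at 72 h. In the shIRE1 clones every library at 24, 48 and 72 h lay above the 0 h libraries, and in the shXBP1 clones every library at 48 and 72 h lay below them, with an overlap only in shXBP1 clone 18 at 24 h. Each comparison without overlap had an exact permutation p of 0.1 (two-sided), which is the smallest that 3 against 3 libraries can give.

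The ratio of JCHAIN to IGKC was taken in the same way. There were 13.6 ± 0.681 JCHAIN counts per 100 IGKC counts in shIRE1 clone 1 at 0 h and 14.3 ± 0.533 at 72 h, with overlap. In shIRE1 clone 3 the ratio dipped from 12.8 ± 0.341 at 0 h to 8.55 ± 1.78 at 24 h and then stood at 16.9 ± 0.361 at 48 h and 16.8 ± 1.15 at 72 h, with no overlap with 0 h at any time (exact permutation p = 0.1, two-sided). In both shXBP1 clones the ratio overlapped with 0 h at every time.

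**Figure D3:**
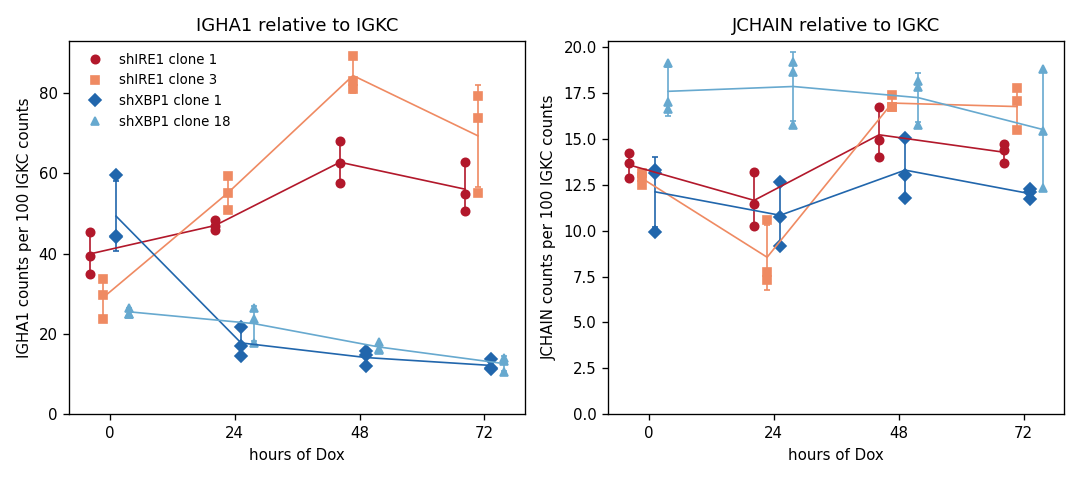
IGHA1 counts (left) and JCHAIN counts (right) per 100 IGKC counts in each library, by clone and hours of Dox, with 1 point per library and a line through the group means (error bars, SD, n = 3). IGHA1 per 100 IGKC counts goes up in both shIRE1 clones, to 56.0 and 69.3 at 72 h, and down in both shXBP1 clones, to 12.2 and 12.6.

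GC content moved with part of these values. The transcripts of IGHA1 and IGHA2 are rich in GC, at 63.7 and 63.3%, as are those of CRELD2 (60.7%) and MZB1 (58.4%), whereas IGKC stands at 53.3% and JCHAIN at 35.6%. The median GC slope of the libraries went from -0.124 at 0 h to 0.172 at 24 h in shIRE1 clone 3, and from 0.052 at 0 h to -0.087 at 72 h in shXBP1 clone 1. With a GC offset in the fit, chosen after the data were seen, the change of IGHA1 at 72 h was -0.81 in shIRE1 clone 1, -1.35 in shIRE1 clone 3, -1.37 in shXBP1 clone 1 and -1.17 in shXBP1 clone 18, each still past the threshold. At 24 h the offset turned the direction of IGHA1 in both shIRE1 clones, to -0.15 in clone 1 (adjusted p = 2.82e-05) and -0.06 in clone 3 (adjusted p = 0.188). The rise of IGHA2 at 24 h was smaller with it, at 0.26 in clone 1 and 0.55 in clone 3, and passed. The offset also took MZB1 in shIRE1 clone 1 at 24 h to -0.19, a call gained (adjusted p = 8.34e-06), and CRELD2 in shXBP1 clone 1 to -0.40 at 48 h and -0.49 at 72 h, from -0.73 and -0.80. The gap between the changes of IGHA1 and IGKC at 72 h kept its direction in every clone, at 0.36 and 1.08 log2 units in shIRE1 clones 1 and 3 and at -1.61 and -0.87 in shXBP1 clones 1 and 18, against 0.49, 1.27, -2.02 and -1.01 without the offset. At 24 h the gap in shIRE1 clone 1 was 0.06 with the offset and 0.24 without it. The gap between JCHAIN and IGKC at 72 h was 0.23 in shIRE1 clone 1 and 0.69 in clone 3 with the offset, against 0.07 and 0.38. Beyond these values, the part of GC content in the results was not tested.

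MZB1, a partner of the chaperone GRP94 that takes part in the assembly and secretion of antibody, fell in all 4 clones by 72 h. In shXBP1 clone 18 it went from 595.856 to 682.762 CPM at 0 h to 240.819, 203.949 and 193.788 CPM at 72 h, a log2 change of -1.60 ± 0.09 (adjusted p = 2.35e-07). Its change at 72 h was -1.29 ± 0.12 in shXBP1 clone 1, -1.05 ± 0.07 in shIRE1 clone 3 and -0.35 ± 0.07 in shIRE1 clone 1, where the 72 h libraries lay between 303.91 and 336.529 CPM and still below all 0 h libraries, which began at 382.866 CPM. At 24 h in shIRE1 clone 1 the groups overlapped and the change was -0.10 ± 0.07 (adjusted p = 0.24). FKBP11, a prolyl isomerase of the ER in secretory cells, fell in every clone at every time. At 72 h it stood at 50.8431 to 51.1029 CPM in shIRE1 clone 3, against 128.977 to 137.351 CPM at 0 h (-1.38 ± 0.05), and at 66.0946 to 85.8656 CPM in shXBP1 clone 18, against 185.189 to 199.47 CPM at 0 h (-1.30 ± 0.08). Its change was -1.13 ± 0.08 in shXBP1 clone 1 and -0.80 ± 0.04 in shIRE1 clone 1, all with adjusted p of at most 2.65e-06.

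CRELD2, an ER protein known as a gene of the unfolded protein response, was the least abundant of the genes and moved most in shIRE1 clone 1. There it went from 29.5778, 32.6965 and 34.9691 CPM at 0 h, written in ascending order, to 12.7305, 12.9001 and 13.0865 CPM at 72 h, a log2 change of -1.33 ± 0.07 (adjusted p = 4.7e-12). The changes at 72 h in the other clones were -0.97 ± 0.08 in shIRE1 clone 3, -0.80 ± 0.17 in shXBP1 clone 1 and -0.61 ± 0.09 in shXBP1 clone 18, and no 72 h library reached a 0 h library. Its call at 24 h in shXBP1 clone 1 (-0.62 ± 0.17) was lost without 0 h replicate 1 (-0.41, adjusted p = 0.0764), without 24 h replicate 1 or 3, and with only the 6 libraries compared (adjusted p = 0.0656), and that in shXBP1 clone 18 (-0.41 ± 0.09, adjusted p = 0.026) was lost without any of the 0 h or 24 h libraries, with adjusted p between 0.0566 and 0.142, and with a replicate block (0.0596). PPIB, the prolyl isomerase cyclophilin B of the ER, fell in all clones by 72 h, with a log2 change of -0.91 ± 0.05 in shIRE1 clone 1, -0.84 ± 0.07 in shIRE1 clone 3, -0.57 ± 0.07 in shXBP1 clone 1 and -0.74 ± 0.08 in shXBP1 clone 18. Its 72 h libraries lay between 51.1052 and 57.21 CPM in shIRE1 clone 3, against 91.2005 to 100.92 CPM at 0 h, and between 103.355 and 128.963 CPM in shXBP1 clone 18, against 194.603 to 201.94 CPM. The lowest of the latter was again replicate 3.

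Without shXBP1 clone 18 at 72 h replicate 3, the log2 changes in that clone at 72 h were -0.32 for IGKC, -1.37 for IGHA1, -1.47 for IGHA2, -1.54 for MZB1, -1.20 for FKBP11, -0.59 for CRELD2 and -0.65 for PPIB, beside the value of JCHAIN given above, and all 8 passed the test. Without shIRE1 clone 3 at 24 h replicate 1, those in that clone at 24 h were -0.585 for IGKC, 1.165 for IGHA2, -0.53 for MZB1, -0.43 for FKBP11, -0.36 for CRELD2 and -0.245 for PPIB, and with IGHA1 and JCHAIN (given above) all 8 passed. Leaving out either library thus ended no call of these comparisons with 0 h, and leaving out the second gained that of IGHA1.

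The 5 members that have an entry in the RefSeq promoter table of GRCh38.p14 were searched for letters that factors of the unfolded protein response are known to bind, on both strands of the 250 bases before and 50 bases after each start. These were CCACG, the second part of the ER stress element, which 38.1% of all 35116 promoters hold, ACGTG (21.4%), TGACGTGG (0.729%) and the whole element, CCAAT and CCACG with 9 bases between them, in 27 promoters (0.0769%). The short element, ATTGG and CCACG with 1 base between them (0.0541%), the octamer ATGCAAAT of antibody promoters (1.77%) and the interferon response core, a pair of GAAA with 2 bases between them (3.57%), were searched as well. CRELD2 held the whole element, on the minus strand from 80 to 62 bases before the start. MZB1 held CCACG on both strands, overlapping with ACGTG in a palindrome from 118 to 111 bases before the start, and PPIB held 3 CCACG, of which 1 overlapped with an ACGTG. FKBP11 has 2 entries, with a CCACG in each, and with 1 ACGTG in the first and 3 in the second, and JCHAIN held none of these letters. The bases before the start are shown for some of these genes, with the matches in capitals, at chr5:139389914-139390163 (MZB1, minus strand), chr22:49918384-49918633 (CRELD2, plus strand) and chr15:64163023-64163272 (PPIB, minus strand). Since the letters alone do not make a binding site, the matches are a description.
MZB1: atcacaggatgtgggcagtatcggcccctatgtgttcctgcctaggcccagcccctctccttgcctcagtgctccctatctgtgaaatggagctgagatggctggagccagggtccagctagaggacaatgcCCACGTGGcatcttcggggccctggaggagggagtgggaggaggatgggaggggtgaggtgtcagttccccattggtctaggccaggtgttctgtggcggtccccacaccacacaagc
CRELD2: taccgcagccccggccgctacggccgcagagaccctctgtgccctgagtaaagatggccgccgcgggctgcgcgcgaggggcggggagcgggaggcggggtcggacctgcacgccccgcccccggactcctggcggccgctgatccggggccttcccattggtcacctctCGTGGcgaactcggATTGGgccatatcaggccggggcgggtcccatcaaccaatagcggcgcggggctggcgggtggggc
PPIB: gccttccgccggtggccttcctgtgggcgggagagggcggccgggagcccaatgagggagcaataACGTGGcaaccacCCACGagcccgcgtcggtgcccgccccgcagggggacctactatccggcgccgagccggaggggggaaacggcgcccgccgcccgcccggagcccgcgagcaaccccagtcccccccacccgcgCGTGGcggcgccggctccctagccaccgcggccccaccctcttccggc

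Counted over the 8 genes, 3 to 8 passed the test in a clone at a given time. In shIRE1 clone 1, 6 of the 8 passed the edgeR test at 24 h (5 lower, with IGHA2 higher) against 61.4% of all genes tested (29% lower, 32.4% higher). At 48 h 7 passed, against 65.4% of all genes (31.5% lower, 33.9% higher), and at 72 h again 7, against 63.6% (31.1% lower, 32.5% higher). In shIRE1 clone 3, 7 passed at 24 h (6 lower, with IGHA2 higher), against 46.2% of all genes (23.3% lower, 22.8% higher). The later counts were 7 at 48 h, against 63.2% (31.6% lower, 31.6% higher), and 7 at 72 h, against 60.2% (30.5% lower, 29.7% higher). In shXBP1 clone 1, 7 passed at 24 h (6 lower, with IGKC higher), against 26.7% of all genes (12.8% lower, 13.9% higher). At 48 h there were 6, against 32% (15.5% lower, 16.6% higher), and at 72 h 7 (6 lower, with IGKC higher, a call that a replicate block ends), against 33.6% (16.8% lower, 16.8% higher). In shXBP1 clone 18, 3 passed at 24 h, namely MZB1, FKBP11 and CRELD2, against 1.59% of all genes (1.3% lower, 0.291% higher). The count was 7 at 48 h, against 5.78% (3.5% lower, 2.28% higher), and 8 at 72 h, against 9.96% (5.55% lower, 4.41% higher), each as a fall. The median change of the 8 genes at 72 h was -0.85 in clone 1 and -1.10 in clone 3 of shIRE1, against -0.97 in clone 1 and -1.02 in clone 18 of shXBP1, where the median over all genes was 0.02 or nearer to 0. The counts in shXBP1 clone 18 are the least firm. Without 72 h replicate 3 they were 5 at 24 h and 8 at 48 h, and the share of all genes in that fit is not given here. The shares above for this clone come from fits with that library. Leaving it out also changed the SE at other times, for JCHAIN at 48 h from 0.11 to 0.058. At 48 h the counts were 3 or 4 when any of the 0 h libraries or 48 h replicate 1 or 2 was left out, since IGKC, IGHA2, CRELD2 and PPIB then missed the threshold.

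Most of the later movement in the shIRE1 clones came between 24 and 48 h. All 8 genes were lower at 48 than at 24 h in clone 1, where 30.3% of all genes passed (14.3% lower, 16% higher), and 7 in clone 3, where 34.6% did (17.4% lower, 17.2% higher), with median changes of -0.54 and -0.73. From 48 to 72 h no member passed in clone 1, against 0.869% of all genes (0.496% lower, 0.373% higher), or clone 3, against 0.936% (0.424% lower, 0.512% higher), by edgeR, with 0 and 1 at an unadjusted p under 0.05, and none by DESeq2 or limma, while 2 passed in each without the filter on low counts. Whether these steps differ between the shRNAs was not tested. In the shXBP1 clones no member passed between 24 and 48 h by edgeR, where 0% of all genes passed in clone 1 and 0% in clone 18, with 4 and 3 members at an unadjusted p under 0.05. None passed from 48 to 72 h, against 0.012% of all genes in clone 1 and 0% in clone 18, with 0 and 5 members at an unadjusted p under 0.05. DESeq2 and limma called no member in these steps, but other settings did. From 24 to 48 h, 4 members in clone 1 and 2 in clone 18 passed with the GC offset, against 1.49 and 0.237% of all genes. Without the filter on low counts 3 and 4 passed, and 1 passed in clone 18 in the fit of all 48 libraries. From 48 to 72 h in clone 18, 6 passed without the filter and 2 in the fit of all 48 libraries. The share of all genes called in these steps without the filter or in the fit of all 48 libraries is not given here.

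A direct test of the difference in response, shIRE1 minus shXBP1 with each taken as the mean of its 2 clones, parted the genes into groups. It called 6 of the 8 genes at 24 h (38.7% of all genes), 7 at 48 h (56.9%) and 7 at 72 h (55.3%). Its SE and adjusted p measure the spread between libraries of a group. They leave out the spread between the 2 clones of an shRNA. For IGKC at 72 h the changes in shIRE1 clones 1 and 3 themselves differed by 1.249 ± 0.09. IGKC and JCHAIN fell more with shIRE1, by 1.71 ± 0.07 and 1.39 ± 0.10 log2 units at 72 h (adjusted p = 1.39e-23 and 2.45e-15). CRELD2 and PPIB did so to a smaller extent, with differences of -0.44 ± 0.12 and -0.22 ± 0.07 at 72 h (adjusted p = 0.00122 and 0.00538). IGHA1, IGHA2 and MZB1 fell more with shXBP1, with differences of 0.68 ± 0.17, 1.58 ± 0.30 and 0.74 ± 0.10 at 72 h (adjusted p = 0.00056, 2.09e-05 and 2.03e-08). Single pairs of clones did not all show this for IGHA1. In shIRE1 clone 3 and shXBP1 clone 18 its changes at 72 h were -1.15 and -1.35, and at 48 h the direction turned for this pair (-0.06 ± 0.23). PPIB changed by -0.84 and -0.74 in these clones at 72 h. For this pair 4 of the 8 genes were called at 72 h. FKBP11 fell less with shIRE1 at 24 h, with a difference of 0.41 ± 0.07, while its differences of -0.11 ± 0.07 at 48 h and 0.13 ± 0.07 at 72 h did not pass.

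**Figure D4:**
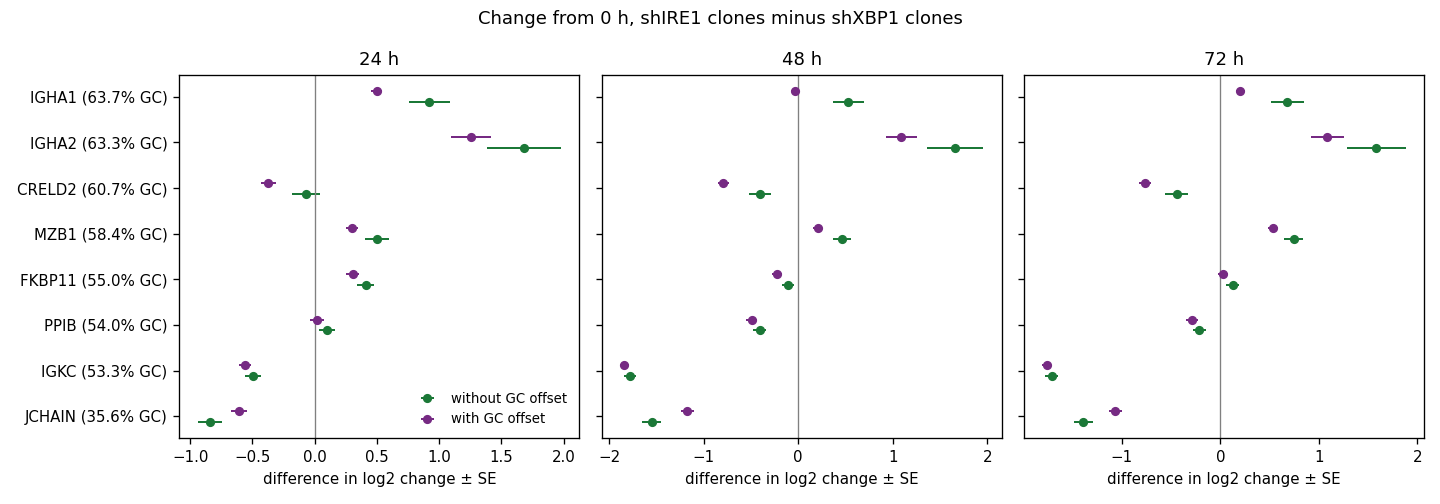
Difference in log2 response, shIRE1 minus shXBP1, of each gene at 24, 48 and 72 h (x axis, ± SE, with a scale for each panel), without (green) and with (purple) a GC offset in the fit, the genes in order of GC content. IGKC stays near -1.7 to -1.8 at 48 and 72 h either way, whereas IGHA1 at 48 h goes from 0.53 to -0.03.

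The GC offset left IGKC at -1.77 and JCHAIN at -1.07 at 72 h and took the difference of IGHA1 from 0.92 to 0.50 at 24 h, from 0.53 to -0.03 at 48 h (adjusted p = 0.494, the call lost) and from 0.68 to 0.21 at 72 h. IGHA2 stood at 1.09 and MZB1 at 0.54 at 72 h with it, so that their direction held, while CRELD2 went from -0.44 to -0.77. Calls were gained for CRELD2 at 24 h (-0.37, adjusted p = 8.47e-07) and for FKBP11 at 48 h (-0.23, adjusted p = 0.000253), the latter also with totals without immunoglobulin genes (-0.14, adjusted p = 0.0499). With the offset, 7 genes were called at each of the 3 times.

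The clones of 1 shRNA also differed in the size of their response, although they had the same target. Between shIRE1 clones 1 and 3, 5 of the 8 genes differed at 24 h (28.2% of all genes), 5 at 48 h (30.8%) and 4 at 72 h (27.5%), and 3 or 4 at 24 h when any of the libraries compared was left out. IGKC fell more in clone 3 by 1.249 ± 0.09 log2 units at 72 h, JCHAIN by 0.94 ± 0.14, MZB1 by 0.70 ± 0.14 and FKBP11 by 0.58 ± 0.09, while CRELD2 fell more in clone 1 at 24 and 48 h. ERN1 also fell more in clone 3 (values above), from 421.243 to 451.374 CPM at 0 h against 149.844 to 154.498 CPM in clone 1, and its part in the difference was not tested. Between shXBP1 clones 1 and 18, 3 genes differed at 24 h (17.1%), 3 at 48 h (24.1%) and 2 at 72 h (24.6%). When 1 library was left out the counts were 1 to 5, 2 to 5 and 2 to 4. IGKC and JCHAIN were higher in the response of clone 1 than in that of clone 18 at every time, by 0.55 ± 0.09 and 0.72 ± 0.14 at 72 h, and IGHA1 was lower at 24 and 48 h, by 0.67 ± 0.23 and 0.76 ± 0.23.

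Other antibody constant genes gave little signal. Of 12 others, 3 passed the filter in the shIRE1 clones and in shXBP1 clone 1, and 4 in shXBP1 clone 18. IGHG2 fell at 72 h by 1.81 ± 0.11 in clone 1 and 1.99 ± 0.12 in clone 3 of shIRE1 and by 0.96 ± 0.25 in shXBP1 clone 1, and was at 0.02 ± 0.14 in clone 18 (adjusted p = 0.958). All 3 of those tested fell at 72 h in both shIRE1 clones, against 63.6 and 60.2% of all genes called in clones 1 and 3. In shXBP1 clone 1, 2 fell, against 33.6% of all genes called. Their levels were at most 56.6 CPM, and the count for shXBP1 clone 18 is not given here. The variable gene rows that held most reads, chosen after their values were seen, are given beside their constant genes. IGKV3D-20, a kappa row, had log2 changes at 72 h of -1.22 and -2.71 in shIRE1 clones 1 and 3, of 0.11 (adjusted p = 0.511) in shXBP1 clone 1 and of -0.73 in clone 18. IGHV3-23, a heavy chain row, changed by -0.60, -1.96, -1.29 and -1.60 in the same order, where IGHA1 changed by -0.67, -1.15, -1.84 and -1.35. At 24 h in shIRE1 clone 3 IGHV3-23 fell by 0.56 ± 0.19 (adjusted p = 0.0247), whereas the value of IGHA1 was above 0. Reads of variable genes can fall on several near-identical rows, so these rows do not identify the rearranged gene.

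Other chaperones and enzymes of ER folding, 29 genes of which 28 were tested, were counted in the same way at 72 h. In shIRE1 clone 1, 26 were lower and 2 higher, against 63.6% of all genes called, and in clone 3, 26 were lower and 1 higher, against 60.2%, with medians of -1.07 and -1.04. In shXBP1 clone 1, 16 were lower and 2 higher, against 33.6%, and in clone 18, 14 were lower and 5 higher, against 9.96%, with medians of -0.22 and -0.34. The difference between the shRNAs was not tested for this list. TXNDC5, a protein disulfide isomerase, fell by 1.03 and 3.05 in the shIRE1 clones, and PDIA3, another of that family, by 1.83 and 1.32, while PDIA3 in the shXBP1 clones stood at -0.09 (adjusted p = 0.293) and 0.08 (0.673). DNAJB9, a co-chaperone of BiP and a known XBP1s target, fell in all 4 clones, by 1.39, 2.42, 0.83 and 1.65. The medians of the 8 genes described here were near these in shIRE1 clones 1 and 3, at -0.85 and -1.10. In shXBP1 clones 1 and 18 they were lower, at -0.97 and -1.02. The gap was not tested and did not hold for each gene. In shXBP1 clone 1 IGKC and JCHAIN stood above the median of the folding genes, at 0.19 and 0.18. In clone 18 IGKC was near that median, at -0.335.

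**Figure D5:**
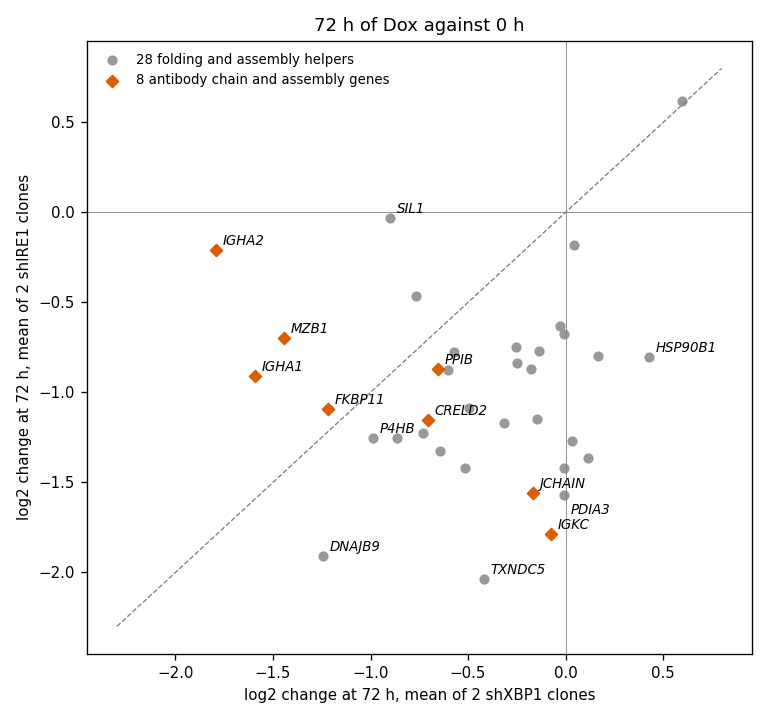
Log2 change at 72 h of 28 other ER folding genes and the 8 antibody chain and assembly genes. The mean of the shXBP1 clones is on the x axis and the mean of the shIRE1 clones on the y axis, with a dashed line where both are equal. Most folding genes lie below the dashed line, as do IGKC and JCHAIN, whereas IGHA1, IGHA2, MZB1 and FKBP11 lie above it.

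Regulators of plasma cell genes and of antibody mRNA, 16 genes of which 15 were tested, include XBP1 itself, the target of the shXBP1 hairpins. At 72 h 9 were lower and 4 higher in shIRE1 clone 1 (63.6% of all genes called), and 11 were lower and 4 higher in clone 3 (60.2%). The counts were 3 lower, XBP1 among them, and 6 higher in shXBP1 clone 1 (33.6%), and 3 lower, again with XBP1, and 0 higher in clone 18 (9.96%). IRF4, a transcription factor that plasma cells need, fell from 1269.75 to 1362.22 CPM at 0 h to 597.191 to 610.5 CPM at 72 h in shIRE1 clone 1 (-1.11 ± 0.04) and from 1384.5 to 1447.95 CPM to 319.843 to 359.208 CPM in clone 3 (-2.10 ± 0.06). It changed by 0.16 ± 0.05 in shXBP1 clone 1 and stood at 0.01 ± 0.05 in clone 18 (adjusted p = 0.935). TENT5C, a poly(A) polymerase that acts on antibody mRNAs, fell by 1.37 and 1.53 in the shIRE1 clones, and PRDM1, a regulator of the plasma cell state, by 1.08 and 1.03. POU2AF1, a coactivator at antibody gene promoters, went the other way, up by 0.46 and 0.67 in the shIRE1 clones and down by 0.35 and 0.32 in the shXBP1 clones. In shXBP1 clone 1 TENT5C changed by 0.40 ± 0.06 at 72 h and PRDM1 by -0.12 ± 0.05 (edgeR adjusted p = 0.0617). In clone 18 TENT5C went from 474.287 to 498.208 CPM at 0 h to 389.11 to 435.622 CPM at 72 h. PRDM1 went there from 262.313 to 265.07 CPM to 274.986 to 298.536 CPM, although no regulator passed the test as higher in that clone.

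Over the 16 group means and 12012 genes, each member was set beside the genes whose log2 pattern was most like its own by Pearson's r. For IGKC these were SH3BP2 (0.988), IRF4 (0.986) and MYADM (0.982), and for JCHAIN they were STT3B (0.993), LITAF (0.992) and UBE2J1 (0.991). For IGHA1 they were SLC25A3 (0.903), CHPF (0.899) and MZB1 (0.894), all lower than the values for the light chain. MZB1 was most like OSTC (0.953), FKBP11 like FITM2 (0.975) and NANS (0.975), CRELD2 like PDIA4 (0.983) and PPIB like RRBP1 (0.981). For IGHA2 the nearest were CAPN10 (0.944), ROMO1 (0.927) and C19orf24 (0.924). Among the members themselves IGKC and JCHAIN had an r of 0.947 and IGKC and IGHA1 one of 0.29. The groups share clones, libraries' GC slopes and depth, so these values describe likeness over these 16 points only.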

How the data were processed

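RNA was taken from 48 cultures of AMO1 cells, in 16 groups given by the sample labels (clone, hours of Dox, replicate number). Libraries came from a kit that keeps strand and selects mRNA, and were sequenced from 1 end over 50 bases. The values used are a gene table of raw read counts, as deposited, and a second table deposited on the log2 scale (CPM after TMM scaling). The submitters' processing notes name GSNAP, edgeR 3.32.1, limma 3.46.0 and the genome GRCh37 (hg19), whereas the study's methods name GRCh38 for a related experiment, and how strand and multiply matching reads were counted is not given in the sources used here. Values of the deposited log2 table match those that edgeR gives for prior count 2 within 5e-14 and served as an alternative. Positions come from GENCODE 44 on GRCh38, in which 57532 of 58302 gene IDs were found, and may differ from the build that was counted on.

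Counts were scaled by TMM (factors 0.924 to 1.09), filtered by filterByExpr (minimum count 10, minimum total 15) and tested by the quasi-likelihood method of edgeR 4.0.16 under R 4.3.3, with Benjamini-Hochberg adjustment over all genes tested and a threshold of 0.05. Changes after Dox came from a fit of the 12 libraries of the clone, and comparisons of clones at 0 h and differences in response from a fit of all 48 libraries (18445 genes). Standard errors are those of log2 differences. Total counts ran from 19177855 to 40767202, so that 1 count was at most 0.0521 CPM. P-values measure the spread between flasks of 1 clone. The fits were also run on simulated counts that had the same extra spread for every gene and no GC slopes. Such counts do not cover these features of the data, and the outcome is not given here.

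Ratios between genes were compared by an exact permutation test (two-sided). The genes, the lists of other constant genes, folding genes, regulators and cell type markers, and the tests were chosen with earlier results of these data known. Named genes were the 8 members, ERN1, XBP1, IRF4, PRDM1, POU2AF1 and TENT5C, up to 3 genes of each list with the largest mean change at 72 h for an shRNA, and the 3 genes most like each member over the group means. Alternatives were RLE factors, totals without immunoglobulin genes, no filter, DESeq2 1.42.0, limma 3.58.1 on the log2 table, other sets of libraries, single pairs of clones, a replicate block, IGHA1 and IGHA2 summed, and leaving out each library. A GC offset was added after the data were seen. It is a lowess curve (span 0.3) per library of log2 CPM, centred per gene, on the GC content of the canonical transcript, over genes with a mean log2 CPM above 1. A GC content was known for 99.2% of the 18445 genes.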

Additional observations from a re-analysis of the deposited data

Results flagged for a closer look

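The difference in response between the shRNAs passed the edgeR test for 20 of 24 combinations of gene and time (shIRE1 minus shXBP1, log2). Of all genes, 38.7% passed at 24 h, 56.9% at 48 h and 55.3% at 72 h. The test leaves out the spread between the clones of an shRNA. For IGKC the difference was -0.495, -1.779 and -1.712 at 24, 48 and 72 h, and for JCHAIN it was -0.842, -1.551 and -1.391. For IGHA1 it was 0.920, 0.530 and 0.682, for IGHA2 1.684, 1.661 and 1.584, and for MZB1 0.499, 0.462 and 0.744. FKBP11 differed at 24 h (0.410) and did not pass at 48 or 72 h, although a GC offset gained its call at 48 h (-0.229) and that of CRELD2 at 24 h (-0.371). CRELD2 and PPIB differed at 48 h (-0.401 and -0.408) and 72 h (-0.444 and -0.216).

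The response also differed between clones of the same shRNA. For shIRE1 clone 1 minus clone 3 the difference at 24, 48 and 72 h was 0.457, 1.306 and 1.249 for IGKC, 0.829, 1.066 and 0.936 for JCHAIN, 0.438, 0.753 and 0.696 for MZB1 and 0.257, 0.473 and 0.577 for FKBP11, and for CRELD2 it was -0.470 at 24 h and -0.505 at 48 h. For shXBP1 clone 1 minus clone 18 it was 0.617, 0.437 and 0.549 for IGKC and 0.433, 0.599 and 0.722 for JCHAIN, and for IGHA1 it was -0.672 at 24 h and -0.762 at 48 h.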

How the results depend on the processing

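Of 96 member values after Dox 79 passed the test, where 1.59 to 65.4% of all genes did in each comparison. Of the 79, 68 passed whichever library was left out. At 0 h 39 of 48 values passed, against 32.3 to 52.7% of all genes, and 31 held. For the difference in response 20 of 24 passed, against 38.7 to 56.9% of all genes, and all 20 held whichever library was left out. Of these, 19 also passed under every other alternative but the single pairs of clones. There, calls were lost with the direction kept for 6 of the 24 values in shIRE1 clone 1 with shXBP1 clone 18. The number was 4 for clone 3 with clone 1 and 6 for clone 3 with clone 18. The direction turned for 3 values in each of these pairs and for 1 in shIRE1 clone 1 with shXBP1 clone 1. RLE factors, limma, totals without immunoglobulin genes and summed IGHA1 and IGHA2 moved no count of members by more than 1.5 times. Without the filter the count was 2 for shIRE1 clones 1 and 3 (72 against 48 h), 3 for shXBP1 clone 1 (48 against 24 h), 8, 4 and 6 for clone 18 (24 h, 48 against 24 h, 72 against 48 h) and 5 between the shXBP1 clones at 72 h. For clone 18 at 24 h it was 5 with DESeq2, 6 with only the 6 libraries compared and 5 with all 48, which also gave 1 (48 against 24 h) and 2 (72 against 48 h). With the GC offset it was 4 for shXBP1 clone 1 (48 against 24 h, 1.49% of all genes). For clone 18 it was 6 at 24 h (4.51%) and 2 for 48 against 24 h (0.237%). Between the shXBP1 clones it was 6, 5 and 5 at 24, 48 and 72 h (27.8, 30.2 and 34.8%). Shares of all genes under the other settings of this paragraph are not given here. Single pairs of clones called 3 members at 24 h (shIRE1 clone 1, shXBP1 clone 18) and 4 at 72 h (clone 3, clone 18). Leaving out 1 library gave 2 to 5 calls for clone 18 at 24 h, 3 to 8 at 48 h and 0 to 1 for 48 against 24 h, 4 to 7 for shIRE1 clone 3 against shXBP1 clone 1 at 0 h, 3 to 4 between the shIRE1 clones at 24 h, and 1 to 5, 2 to 5 and 2 to 4 between the shXBP1 clones at 24, 48 and 72 h. The causes were not tested.

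The direction turned for IGHA1 in shIRE1 clone 1 at 24 h with the GC offset (-0.150) and without 1 library (-0.050 to 0.138), in clone 3 at 24 h with the offset (-0.064), at 0 h in clone 3 against shXBP1 clone 18 with it (0.034), and in the difference at 48 h with it (-0.035) and in the pair of clones 3 and 18 (-0.057). It turned for IGHA2 in shIRE1 clone 1 at 48 h without 1 library (0.175 and 0.074, in a range of -0.268 to 0.175), in clone 3 at 48 h with the offset (-0.122) and at 72 h without 1 library (0.028 and 0.090, in a range of -0.262 to 0.090). In single pairs it turned for IGKC at 24 h (0.042), PPIB at 24 h (-0.058), CRELD2 at 24 h (0.260, 0.072, and -0.182 to 0.002 without 1 library) and 48 h (0.018), and FKBP11 at 48 h (0.205, 0.051) and 72 h (-0.258, -0.065). The causes were not tested.

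Replicate numbers did not pair the samples: over 36 pairs of same-numbered libraries the correlation of their deviations ran from -0.41 to 0.25 and was over 0.1 in 4. A replicate block lost the calls of IGKC in shXBP1 clone 1 at 72 h (0.186, adjusted p = 0.0502) and CRELD2 in clone 18 at 24 h (-0.413, adjusted p = 0.0596), and no other member call.

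CRELD2 is the member with the lowest CPM. IGHA2 depends on how reads shared with IGHA1 were counted.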
